A study of Arabidopsis thaliana with 18 samples.

Results

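Small heat shock protein genes were followed in whole seedlings of Arabidopsis thaliana that were moved from cool to warm conditions. The genes are AT2G29500 (HSP17.6B-CI), AT1G53540 (HSP17.6C-CI), AT5G51440 (HSP23.5), AT1G54050 and AT2G19310. They were taken by locus, each through the probe set that the platform annotation pairs with it alone, which gave 5 probe sets for 5 genes, of 13333 genes named in this way. All 5 passed the filter on low values, which was set on the mean over all arrays and so includes the groups in which these genes were high.

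The samples were arp6-10 mutant seedlings, with 4 arrays at each time, and Col-0 wild-type seedlings, with 2 arrays at each time. Seeds of both genotypes were held for 48 h at 4 °C and grown at 20 °C. At 5 days the seedlings went into continuous light at 12 °C for 3 days, and they were collected at 12 °C or after 2 h or 24 h at 27 °C, which makes 6 groups and 18 arrays. The labels give an age of 8 days for all of them and do not say whether the seedlings of each array were grown apart. ARP6, an actin-related protein, is part of SWR1, a remodelling complex that exchanges the histone H2A for its variant H2A.Z, and the series asks how such nucleosomes take part in the response to temperature. The labels do not describe the lesion of arp6-10, and no probe set is paired with ARP6 alone, so the mutation was not checked on these arrays. Seedlings held at 12 °C for the same extra time are not among the groups, so that warmth and elapsed time cannot be told apart.

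Small heat shock proteins are chaperones built around an alpha-crystallin domain. They assemble into oligomers that bind unfolding proteins and hold them for refolding by larger chaperones such as HSP70. In vegetative plant tissue they are scarce until heat activates the heat stress transcription factors, which bind heat shock elements in the promoters. HSP17.6B-CI and HSP17.6C-CI belong to the cytosolic class I, as their names say, and HSP23.5 is a mitochondrial member. AT1G54050 and AT2G19310 are given here by locus.

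Deposited values are linear intensities, and tests were run on log2(intensity + 16) after quantile normalization of the arrays, so a level cannot go under 4 and the fold changes of dim genes are understated. The threshold for a call was a p under 0.05 from limma, adjusted after Benjamini and Hochberg over 15922 probe sets. AT1G53540 had a mean level of 4.81 in Col-0 at 12 °C, close to that floor, and its folds against that group are rough values. Probe sequences were not used here, and cross-hybridization between related family members was not checked. In whole seedlings, more RNA per cell and more cells of a type that holds the RNA cannot be told apart. Where the arrays of groups are said to overlap or not, this describes the values of that gene only. The share of all probe sets without overlap was not counted.

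Arrays labelled arp6-10 12 °C replicate 3 and arp6-10 24 h replicate 2 went against their labels. An axis was set over all tested probe sets, with 0 at the mean of the other arp6-10 arrays at 12 °C and 1 at the mean of the other arp6-10 arrays at 24 h. The first of these arrays lay at 0.96 and the second at -0.04. The remaining arp6-10 arrays, each scored with itself left out, lay between 0.08 and 0.14 at 12 °C and between 0.88 and 0.93 at 24 h. The labels were kept, and results are given for 18 arrays, with those for the 16 arrays without this pair beside them where they differ in call or size. The pair was picked from its values, and the 16 arrays are no independent support. Of the listed green tissue and root markers, 4 of 8 and 3 of 8 had a probe set of their own. The green tissue markers were bright on every array: RCA (at least 10227.6), PSAE-1 (at least 8457.9), PRK (at least 4417.3) and LHCB4.2 (at least 2634.7). Of the root markers PYK10 was bright (at least 5317.6), NAI2 ran between 464.6 and 1595.9, and EXPA7 was dim (23.6 to 249.9). The root sums below are therefore mostly PYK10. The summed green tissue markers ran between 26645.8 and 48786.1 in arp6-10 at 12 °C, 36715.1 and 40164.4 at 2 h and 26896.1 and 51095.9 at 24 h, against 36512.2 to 42038.9, 52291.1 to 56108.5 and 57672.4 to 58289.7 in Col-0 at the same times. The root markers summed to 6335 to 10968.6, 6351.9 to 10078.4 and 8174.8 to 13013.4 in arp6-10, against 9645.6 to 10163.5, 7570.5 to 10376.4 and 12168.7 to 14389.6 in Col-0. No seed storage marker, of 4 listed, had a probe set of its own. The part of the markers in the results was not tested.

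All 5 genes were called higher after 2 h at 27 °C in both genotypes, and their mean levels at 24 h lay between those at 12 °C and 2 h. At 2 h the class I genes AT2G29500 and AT1G53540 and the mitochondrial AT5G51440 were 2.94-fold to 4.59-fold higher in arp6-10 than in Col-0, while AT1G54050 and AT2G19310 were not called between the genotypes on 18 arrays. On 16 arrays AT1G54050 was called lower in arp6-10.

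AT2G29500 encodes the class I protein HSP17.6B-CI. In arp6-10 its deposited intensity was 135.0, 82.1, 101.4 and 98.7 at 12 °C, then 2770.6, 2690.9, 2275.7 and 3609.7 at 2 h, and 175.3, 82.1, 166.6 and 184.6 at 24 h. In Col-0 it was 71.4 and 53.2 at 12 °C, 1119.6 and 815.6 at 2 h, and 155.7 and 94.3 at 24 h. Every arp6-10 array at 2 h was above both Col-0 arrays at 2 h, and these were above every array at the other times. At 24 h the arp6-10 array at 82.1, replicate 2, was the only one of that group under either Col-0 array. At 12 °C the intensities of arp6-10 were all above those of Col-0, but after normalization the ranges overlapped.

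AT1G53540 encodes HSP17.6C-CI, also of class I. In arp6-10 it had intensities of 1, 24.6, 57.8 and 22.5 at 12 °C, then 742.7, 634.4, 472.9 and 737.2 at 2 h, and 88.6, 24.9, 75.5 and 71.4 at 24 h. In Col-0 it had 23.6 and 4.1 at 12 °C, 91.7 and 131.1 at 2 h, and 51.8 and 41.0 at 24 h. The 12 °C values are dim in both genotypes and overlap. At 2 h the lowest arp6-10 array was well above the higher Col-0 array. At 24 h, 3 of 4 arp6-10 arrays were above both Col-0 arrays and replicate 2 was below them.

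AT5G51440 encodes HSP23.5, the mitochondrial small heat shock protein. In arp6-10 its intensity was 108.9, 92.8, 251.2 and 90.6 at 12 °C, then 1943.7, 1602.9, 2131.9 and 2711.8 at 2 h, and 262.1, 107.6, 247.2 and 236.4 at 24 h. In Col-0 it was 53.1 and 22.7 at 12 °C, 583.6 and 511.3 at 2 h, and 132.2 and 139.4 at 24 h. The genotypes did not overlap at 12 °C or at 2 h, with arp6-10 higher at both. Over all probe sets, 17.6% were called higher in arp6-10 at 12 °C and 5.17% at 2 h. At 24 h they overlapped through replicate 2 of arp6-10 alone.

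AT1G54050 took another order. In arp6-10 it had intensities of 66.8, 80.0, 220.8 and 65.5 at 12 °C, then 588.2, 618.4, 409.5 and 436.8 at 2 h, and 180.4, 75.1, 140.5 and 145.6 at 24 h. In Col-0 it had 88.4 and 87.8 at 12 °C, 567.2 and 973.3 at 2 h, and 281.4 and 285.5 at 24 h. Here the arp6-10 arrays overlapped with Col-0 at 2 h and were all below Col-0 at 24 h. At 12 °C, 3 of 4 arp6-10 arrays were below both Col-0 arrays, and replicate 3 stood above them.

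AT2G19310 had overlapping genotypes at every time. In arp6-10 its intensity was 195.4, 246.8, 620.1 and 132.8 at 12 °C, then 1233.5, 1341.2, 1045.2 and 899.0 at 2 h, and 539.1, 97.9, 549.1 and 686.0 at 24 h. In Col-0 it was 122.6 and 144.1 at 12 °C, 1344.5 and 1099.1 at 2 h, and 495.4 and 714.5 at 24 h. The arp6-10 array at 620.1, replicate 3 at 12 °C, lay within the 24 h range of the other arp6-10 arrays. The one at 97.9, replicate 2 at 24 h, lay under all arrays at 12 °C.

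**Figure D1:**
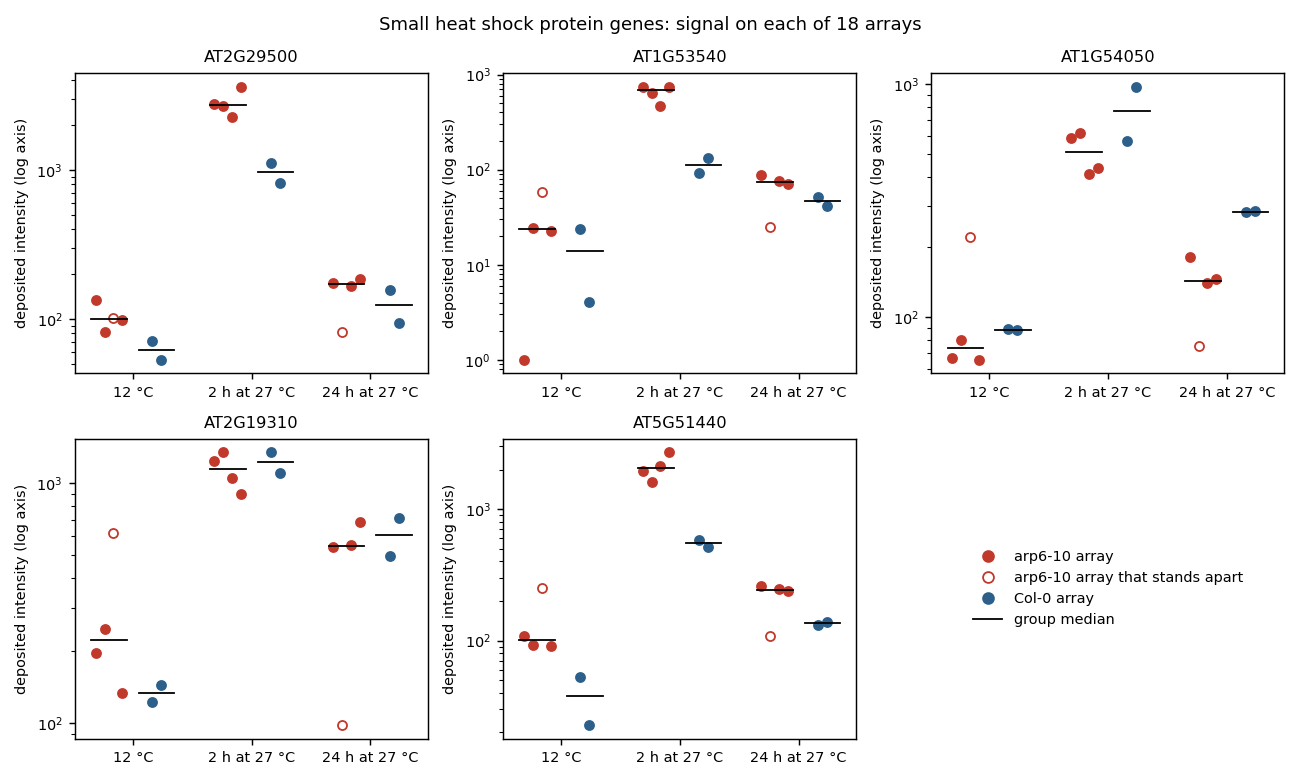
Deposited intensity (log axis) of the 5 small heat shock protein genes on each of the 18 arrays, at 12 °C and after 2 h and 24 h at 27 °C, with arp6-10 in red left of Col-0 in blue; black lines are group medians and open points are the pair of arp6-10 arrays that went against their labels. At 2 h the 4 arp6-10 arrays lie above both Col-0 arrays for AT2G29500, AT1G53540 and AT5G51440, and the genotypes overlap for AT1G54050 and AT2G19310.

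After 2 h of warmth the whole group rose in both genotypes. In arp6-10 all 5 genes were called higher at 2 h than at 12 °C, where 1.86% of all tested probe sets were called higher. AT2G29500 led with a 24.9-fold change (log2 4.64 ± 0.23 SE, limma adjusted p = 9.73e-10), and it ranked 6 of 15922 by size of increase. AT1G53540 changed 17.8-fold (log2 4.15 ± 0.34) and AT5G51440 15.4-fold (log2 3.94 ± 0.29). The smallest changes were 4.84-fold for AT1G54050 (log2 2.27 ± 0.28) and 4.14-fold for AT2G19310 (log2 2.05 ± 0.47, limma adjusted p = 0.0229). All 5 were among the 26 largest increases. The median over the genes was 3.94 log2 units, against 0.00 over all probe sets. On 16 arrays all 5 were called, with 8.38% of probe sets called higher, and the folds lay between 5.55 and 24.6. On 18 arrays the call of AT2G19310 was lost when any 1 of 7 arp6-10 arrays at 12 °C or 2 h was left out, all but replicate 3 at 12 °C (adjusted p up to 0.0786).

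In Col-0 all 5 genes were also called higher at 2 h, with 4.37% of all probe sets. AT2G29500 changed 10.8-fold (log2 3.43 ± 0.32 SE, limma adjusted p = 2.53e-05) and AT5G51440 10.4-fold (log2 3.38 ± 0.41). AT2G19310 changed 7.12-fold (log2 2.83 ± 0.67), AT1G54050 6.40-fold (log2 2.68 ± 0.40) and AT1G53540 5.05-fold (log2 2.34 ± 0.48). They ranked between 9 and 29 of 15922, with a median of 2.83 log2 units against 0.00 over all probe sets. On 16 arrays all 5 were called at folds between 5.02 and 10.9, with 11.2% of probe sets. Without Col-0 2 h replicate 2 only 3 were called on the remaining arrays, while calls over all probe sets fell to 554 from 1258. AT1G53540 was lost without that array or Col-0 12 °C replicate 2 (adjusted p up to 0.0629). AT2G19310 was lost without either Col-0 2 h array or Col-0 12 °C replicate 1 (adjusted p up to 0.125).

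**Figure D2:**
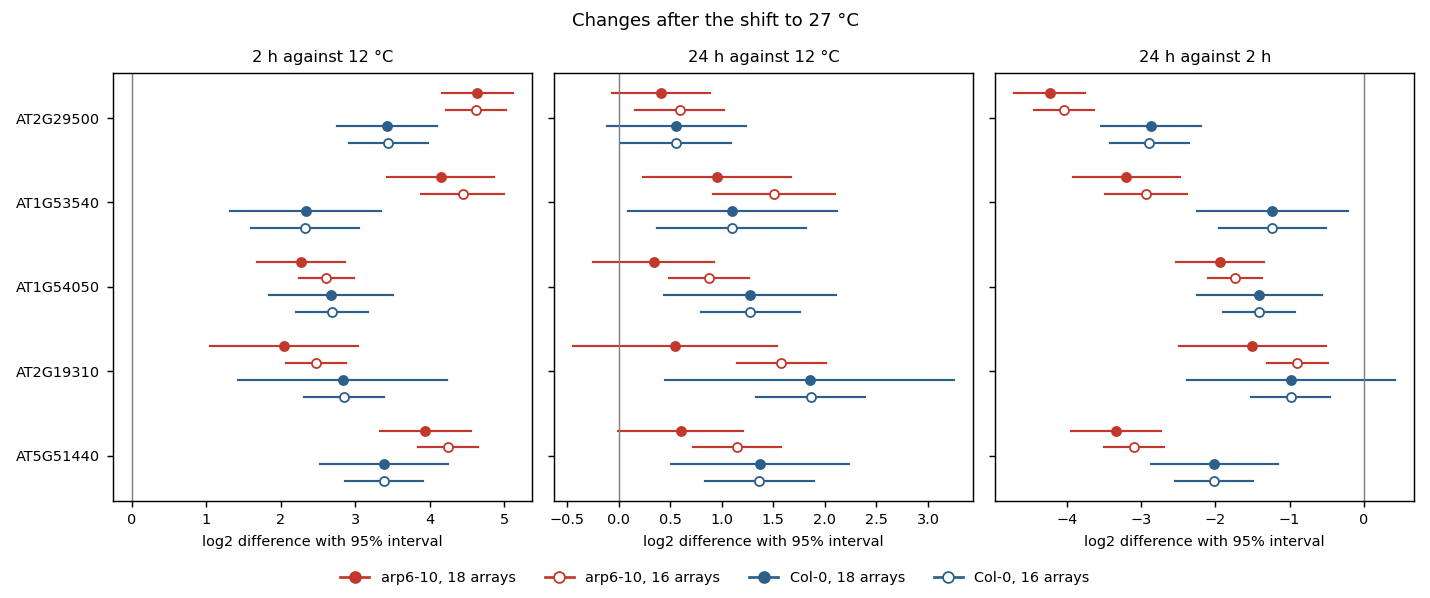
Log2 differences with 95% intervals between times for each gene, in arp6-10 (red) and Col-0 (blue), from 18 arrays (filled) and from 16 arrays (open); positive values are higher at the later time. At 2 h all 5 genes are above 0 in both genotypes, and between 24 h and 2 h all estimates are below 0.

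After 24 h at 27 °C the genes stood much lower than at 2 h. In arp6-10, 4 of 5 were called lower at 24 h than at 2 h, with 0.923% of all probe sets. AT2G29500 was 18.8-fold lower (log2 -4.23 ± 0.23 SE, limma adjusted p = 5.94e-09), the decrease ranking 4 of 15922. AT5G51440 was 10.1-fold lower, AT1G53540 9.18-fold lower and AT1G54050 3.83-fold lower. AT2G19310 had a log2 difference of -1.50 ± 0.47 and was not called (limma adjusted p = 0.120). On 16 arrays all 5 were called lower, with 7.82% of probe sets, between 1.86-fold for AT2G19310 and 16.4-fold for AT2G29500. In Col-0, 2 of 5 were called lower at 24 h than at 2 h, with 1.94% of probe sets. These were AT2G29500, 7.32-fold lower (log2 -2.87 ± 0.32), and AT5G51440, 4.03-fold lower (log2 -2.01 ± 0.41). The other 3 had log2 differences between -1.41 and -0.98. On 16 arrays all 5 were called lower, with 6.24%. The call of AT5G51440 was lost without either Col-0 2 h array or Col-0 24 h replicate 1 (adjusted p up to 0.108), and that of AT1G54050 was gained without either of the arp6-10 arrays that went against their labels.

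Set against 12 °C, a part of the increase was still there at 24 h, and its call in arp6-10 rested on the choice of arrays. On 18 arrays none of the 5 was called between 24 h and 12 °C in arp6-10 by limma, and neither was any other probe set (0% of 15922). At an unadjusted p under 0.05, 1 of the 5 passed, AT1G53540 at log2 0.95 ± 0.34. On 16 arrays all 5 were called higher, with 14.0% of probe sets. AT2G19310 was then 2.99-fold higher (log2 1.58 ± 0.21), AT1G53540 2.84-fold (log2 1.51 ± 0.28), AT5G51440 2.22-fold (log2 1.15 ± 0.20), AT1G54050 1.84-fold (log2 0.88 ± 0.19) and AT2G29500 1.51-fold (log2 0.59 ± 0.21, limma adjusted p = 0.0380). The median over the genes was 0.55 log2 units on 18 arrays and 1.15 on 16, against -0.01 over all probe sets on both. With 1 array left out, the count reached 3 without replicate 2 of arp6-10 at 24 h, namely AT1G53540, AT2G19310 and AT5G51440. It was 1 without replicate 3 of arp6-10 at 12 °C, namely AT1G53540. The share of all probe sets called in these fits is not given here, so these counts do not describe the 5 genes alone.

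In Col-0, 2 of 5 were called higher at 24 h than at 12 °C, with 10.3% of all probe sets. AT5G51440 was 2.59-fold higher (log2 1.37 ± 0.41 SE, limma adjusted p = 0.0296) and AT1G54050 2.42-fold higher (log2 1.27 ± 0.40, limma adjusted p = 0.0358). The other 3 had log2 differences of 1.85 ± 0.67 for AT2G19310, 1.10 ± 0.48 for AT1G53540 and 0.56 ± 0.32 for AT2G29500. On 16 arrays 4 were called higher, all but AT2G29500, with 16.8%. The 18-array calls rest on few arrays, since AT1G54050 was lost when any 1 of the 4 Col-0 arrays compared was left out (adjusted p up to 0.157). AT5G51440 was lost without Col-0 12 °C replicate 2 or either 24 h array (adjusted p up to 0.208). AT2G19310 was gained without either of the arp6-10 arrays that went against their labels.

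The genes differed in how much of the 2 h change remained at 24 h. On the log2 scale AT2G29500 kept 8.80% in arp6-10 and 16.2% in Col-0, the lowest shares of the 5. AT2G19310 kept 26.7% in arp6-10 and 65.4% in Col-0, the highest shares. AT1G53540 kept 22.9% and AT1G54050 14.9% in arp6-10, against 47.2% and 47.5% in Col-0, and AT5G51440 kept 15.3% in arp6-10 and 40.5% in Col-0. On 16 arrays the arp6-10 shares were 12.8% for AT2G29500, 33.9% for AT1G53540, 33.6% for AT1G54050, 63.8% for AT2G19310 and 27.1% for AT5G51440. These shares are descriptions with no test. The test of the 24 h change itself between genotypes called none of the 5 by limma, on 18 arrays (5.83% of probe sets called, none of the 5 at an unadjusted p under 0.05) or on 16 (12.1% called).

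Between the genotypes, the 2 h time point gave the calls with the largest differences. On 18 arrays 3 of 5 genes were called higher in arp6-10 at 2 h, with 5.17% of all probe sets. AT1G53540 was 4.59-fold higher in arp6-10 than in Col-0 (log2 2.20 ± 0.42 SE, 95% interval 1.32 to 3.08, limma adjusted p = 0.00453), the increase ranking 14 of 15922. AT5G51440 was 3.57-fold higher (log2 1.83 ± 0.35, 95% interval 1.09 to 2.58, limma adjusted p = 0.00485). AT2G29500 was 2.94-fold higher (log2 1.56 ± 0.28, 95% interval 0.97 to 2.14, limma adjusted p = 0.00329). AT1G54050 differed by -0.57 (95% interval -1.29 to 0.15) and AT2G19310 by -0.12 (95% interval -1.34 to 1.09), and neither was called. The median over the 5 was 1.56, against 0.02 over all probe sets. On 16 arrays the same 3 genes were called higher, with 10.5% of probe sets, at 4.62-fold, 3.60-fold and 2.97-fold. AT1G54050 was then called lower in arp6-10 (log2 -0.58 ± 0.20, limma adjusted p = 0.0482), with 8.85% of probe sets. The Col-0 group holds 2 arrays, and without Col-0 2 h replicate 2 only AT1G53540 was called (adjusted p = 0.0488), while AT2G29500 and AT5G51440 had adjusted p of 0.0811 and 0.0843. Col-0 2 h replicate 2 also had the highest ratio of the 3' to the 5' GAPDH control probe set of all arrays (6.78, median 2.93). Its mean over the hybridization controls was the highest as well (5467.74, median 2961.38). These control means also differed by genotype. At 12 °C they ran from 3573.24 to 3695.98 in Col-0 and from 2568.98 to 3020.07 in arp6-10. At 2 h they ran from 3891.69 to 5467.74 and from 2580.5 to 3066.61, again without overlap. At 24 h the ranges overlapped (3497.03 to 4334.68 and 2329.44 to 3905.67). The part of these array differences in the calls was not tested. With a pseudocount of 1 in place of 16, the difference of AT1G53540 was 2.33 and was not called (adjusted p = 0.109).

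At 12 °C the genotypes differed for AT5G51440, which was 2.42-fold higher in arp6-10 (log2 1.27 ± 0.35 SE, limma adjusted p = 0.0113). This was 1 call of 5, where 17.6% of all probe sets were called higher. The other 4 lay between -0.17 for AT1G54050 (0.10 with values as deposited) and 0.66 for AT2G19310. On 16 arrays AT5G51440 was 1.98-fold higher (log2 0.99 ± 0.23) and again the only call, with 20.7% of probe sets. The call was lost without Col-0 12 °C replicate 2, whose intensity of 22.7 was the lowest for this gene (log2 0.86, adjusted p = 0.180).

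At 24 h no gene was called between the genotypes on 18 arrays by limma, with 0.930% of all probe sets called in either direction. At an unadjusted p under 0.05, 1 of 5 passed, AT1G54050, at log2 -1.10 ± 0.34 in arp6-10 (adjusted p = 0.131). On 16 arrays AT1G54050 was called, 1.86-fold lower in arp6-10 than in Col-0 (log2 -0.90 ± 0.21, limma adjusted p = 0.0252), with 1.36% of probe sets called lower. It was also called on 17 arrays without arp6-10 12 °C replicate 3 (adjusted p = 0.0343). The 3 genes that were higher in arp6-10 at 2 h had 24 h differences of 0.20, 0.23 and 0.51 for AT2G29500, AT1G53540 and AT5G51440 on 18 arrays, and of 0.42, 0.50 and 0.77 on 16, and none of these was called.

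**Figure D3:**
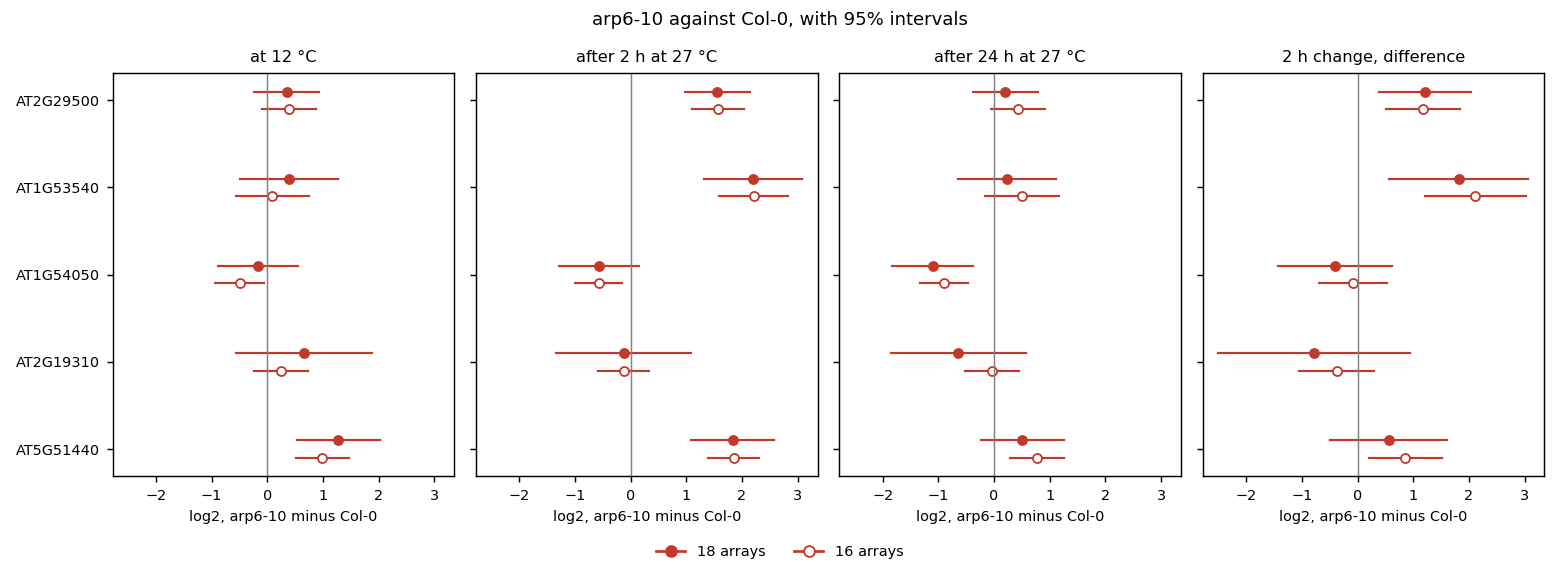
Log2 difference of arp6-10 minus Col-0 with 95% intervals at 12 °C, after 2 h and after 24 h at 27 °C, and the same difference for the 2 h change itself, from 18 arrays (filled) and 16 arrays (open). At 2 h AT2G29500, AT1G53540 and AT5G51440 lie above 0 with differences of 1.56, 2.20 and 1.83 on 18 arrays, and AT1G54050 and AT2G19310 lie at -0.57 and -0.12.

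A difference at 2 h can hold a difference already there at 12 °C, and the change itself was therefore compared. The 2 h change of AT1G53540 was larger in arp6-10 than in Col-0 by 1.81 ± 0.59 log2 units, and that of AT2G29500 by 1.21 ± 0.39. Both passed at an unadjusted p under 0.05, but none of the 5 was called by limma (adjusted p = 0.171 and 0.167), with 0.590% of all probe sets called in either direction. AT5G51440 differed by 0.56 ± 0.50, AT1G54050 by -0.40 ± 0.49 and AT2G19310 by -0.78 ± 0.81. On 16 arrays AT1G53540 was called (2.11 ± 0.43, limma adjusted p = 0.0186), with 0.502% of probe sets called higher, and it ranked 5 of 15922. AT2G29500 then had 1.18 ± 0.32 with an adjusted p of 0.0591, and AT5G51440 0.86 ± 0.32 with 0.157.

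The order of the 6 groups was the same for the class I genes and AT5G51440: arp6-10 at 2 h, Col-0 at 2 h, arp6-10 at 24 h, Col-0 at 24 h, arp6-10 at 12 °C and Col-0 at 12 °C. On 18 arrays the groups at 2 h did not overlap with the next group down, and later neighbours overlapped, except for AT5G51440, whose arp6-10 arrays at 12 °C lay above Col-0 at 12 °C. For AT1G54050 and AT2G19310 Col-0 stood above arp6-10 at 2 h, with overlapping ranges, and at 24 h. AT1G54050 at 24 h was the one case of these in which the genotypes did not overlap. The 24 h difference of AT2G19310 was log2 -0.65 on 18 arrays and -0.03 on 16, where the means were nearly equal (9.22 in arp6-10 and 9.25 in Col-0). It was not called on either. Over the 6 group means the genes correlated with each other at Pearson r between 0.77 and 0.98. The highest values were within the 3 that were higher in arp6-10 at 2 h (0.96 to 0.98) and between AT1G54050 and AT2G19310 (0.94). All points come from the same 18 arrays, and these values are descriptions.

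The genes whose group means ran most like the mean of the 5, of 8740 other named genes tested, were AT2G25950, AT3G47510, AT1G16570, AT3G28760 and TET10, with r between 0.98 and 0.99 over the 6 groups. These genes were picked for the highest r of 8740 over only 6 points, so the r values are descriptions with no test. Shared regulation was not tested. The swings of these genes were much smaller than those of the small heat shock protein genes. At 2 h on 18 arrays AT3G28760 changed by log2 0.18 in arp6-10 and 0.23 in Col-0, and was not called. AT2G25950 had a median intensity of 239.8, 334.65 and 250.45 at 12 °C, 2 h and 24 h in arp6-10, against 194.8, 260.15 and 252.15 in Col-0. In arp6-10 only AT3G47510 of them was called at 2 h against 12 °C (log2 0.73, limma adjusted p = 0.00800), and in Col-0 none was. On 16 arrays the list was TET10, AT3G47510, AT1G16570, AT3G08910 and HSA32, which encodes a protein of long-lasting heat tolerance. HSA32 changed by 2.04 in arp6-10 and 1.90 in Col-0 at 2 h on 16 arrays.

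Of 14 other small heat shock protein genes listed, 6 had a probe set of their own and 4 of these passed the filter. On 18 arrays 1 of the 4 was called higher at 2 h in each genotype, with 1.86% of all probe sets in arp6-10 and 4.37% in Col-0, and it was AT5G37670 both times. On 16 arrays 3 of 4 were called higher in arp6-10, with 8.38% of probe sets, and 2 of 4 in Col-0, with 11.2%. AT5G37670 had intensities of 86.0, 126.6, 142.5 and 118.5 at 12 °C, 533.9, 519.0, 403.2 and 369.4 at 2 h and 143.3, 106.4, 158.8 and 177.4 at 24 h in arp6-10. In Col-0 it had 17.8 and 41.9, 229.6 and 218.2, and 93.3 and 94.7 at the same times. The genotypes did not overlap at any time, with arp6-10 higher. At 2 h AT5G37670 changed 3.65-fold in arp6-10 and 5.52-fold in Col-0, and it was 2.72-fold higher in arp6-10 at 12 °C and 1.80-fold higher at 2 h (limma adjusted p = 0.000451 and 0.0434). On 16 arrays these values were 3.80-fold, 5.51-fold, 2.62-fold and 1.81-fold, all called. The list's median 2 h change was 0.60 in arp6-10 and 1.11 in Col-0 on 18 arrays, against 0.00 over all probe sets. On 16 arrays it was 1.35 in arp6-10 and 1.11 in Col-0, so that the order of the genotypes turned.

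AT4G21870 had its highest levels at 24 h on the arrays that follow their labels. Its intensities were 437.7, 324.2, 3458.6 and 218.9 at 12 °C, 1259.9, 1161.2, 1203.8 and 1737.1 at 2 h and 2579.9, 277.1, 2698.3 and 3359.8 at 24 h in arp6-10. In Col-0 it had 322.9 and 468.0, 1331.3 and 1029.0, and 3275.9 and 2699.9. Apart from the 3458.6 of replicate 3 at 12 °C and the 277.1 of replicate 2 at 24 h, its values rank 12 °C, 2 h and 24 h without overlap. On 18 arrays AT4G21870 was not called at 2 h, nor at 24 h, when it was 2.80-fold higher than at 12 °C in arp6-10 and 7.20-fold in Col-0 (limma adjusted p = 0.474 and 0.0698). On 16 arrays it was called higher at 2 h and higher still at 24 h, at 9.52-fold over 12 °C in arp6-10 and 7.29-fold in Col-0.

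AT5G47600 was set apart by genotype. In arp6-10 it had intensities of 194.3, 149.2, 1112.1 and 132.6 at 12 °C, 379.4, 321.8, 282.3 and 166.5 at 2 h and 1022.5, 113.9, 1179.1 and 1072.2 at 24 h. In Col-0 it had 45.3 and 31.8, 44.8 and 24.2, and 88.1 and 92.8. All arp6-10 arrays were above all Col-0 arrays at every time. On 18 arrays it was called higher in arp6-10 at 12 °C (log2 2.23 ± 0.80, limma adjusted p = 0.0427) and not at 2 h (log2 2.48, adjusted p = 0.0616) or 24 h (6.45-fold, adjusted p = 0.114). On 16 arrays it was called at all times, and the difference at 24 h was 11.3-fold. AT5G54660 was not called in any comparison on 18 or 16 arrays. The dim pair left out by the filter was AT1G52560, at 57.3 to 140.3 in arp6-10 and 42.1 to 45.5 in Col-0 at 2 h and at most 17.4 at other times, and ATHSP22.0 (AT4G10250), at most 51.3 on any array.

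**Figure D4:**
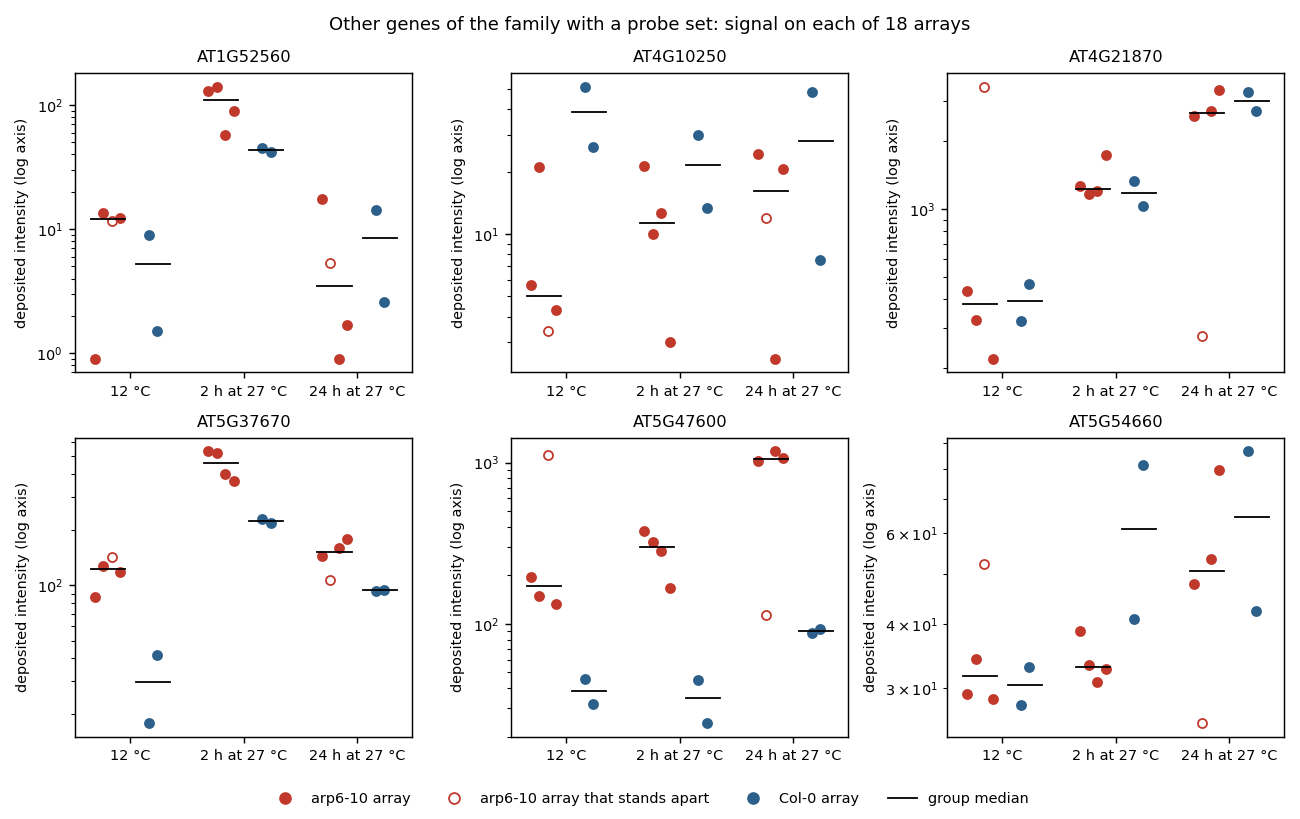
Deposited intensity (log axis) of the 6 other small heat shock protein genes with a probe set of their own, on each of the 18 arrays, drawn as for the 5 genes above, with arp6-10 in red left of Col-0 in blue. AT5G37670 is highest at 2 h in both genotypes, AT4G21870 at 24 h on the arrays that follow their labels, and AT5G47600 lies higher in arp6-10 than in Col-0 at every time.

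Of 41 other heat response genes listed, among them heat stress transcription factors, HSP70, HSP90 and their partners, 7 had a probe set of their own and all 7 passed the filter. At 2 h on 18 arrays, 3 of 7 were called higher in arp6-10 and 4 of 7 in Col-0, and none lower, where 1.86% and 4.37% of all probe sets were called higher. AT5G48570 changed 26.5-fold in arp6-10 and 24.1-fold in Col-0, and on 16 arrays 41.4-fold in arp6-10 and 24.0-fold in Col-0. Hop3, a co-chaperone that links HSP70 and HSP90, changed 9.57-fold in arp6-10 and 7.54-fold in Col-0, and HSA32 3.60-fold in arp6-10 and 3.75-fold in Col-0. On 16 arrays Hop3 changed 13.8-fold in arp6-10 and 7.48-fold in Col-0, and HSA32 4.10-fold in arp6-10 and 3.74-fold in Col-0. At 12 °C AT5G48570 and Hop3 were dim in Col-0 (1.8 to 16.1 and 1.5 to 23.2). Their medians in arp6-10 were 12.5 and 18.9, with single arrays up to 145.9 and 140. The folds of AT5G48570 and Hop3 against 12 °C are therefore rough values. Hsp70-2, an HSP70 chaperone, changed in Col-0 by 1.63-fold. Between the genotypes at 2 h, 3 of 7 were called higher in arp6-10, with 5.17% of all probe sets, namely the Hop proteins Hop1 (2.55-fold) and Hop2 (2.14-fold) and Hsp70-2 (1.61-fold). On 16 arrays Hop3 was also higher in arp6-10 (2.30-fold), Hop2 rose in Col-0 at 2 h (1.96-fold), and AT3G09440 was lower in arp6-10 at 2 h than at 12 °C (log2 -0.59). The list had a median of 0.17 in arp6-10 and 0.97 in Col-0 for the 2 h change, and of 0.85 between the genotypes at 2 h on 18 arrays, and 0.25, 0.97 and 0.85 on 16.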

How the data were processed

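The authors deposited 1 table of linear signal intensity per probe set for 18 arrays, which per the submitters' processing notes came from GCOS. Its algorithm and version are not given here. The trimmed mean was 250.0 on every array (2% removed at each end), and array medians of log2(intensity + 16) ran from 6.27 to 6.72. The table holds 22810 probe sets, of which 64 controls were left out of all tests.

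From there, log2(intensity + 16) was quantile normalized and those in the lowest 30% by mean over the arrays were left out. A model of the 6 group means was fitted to the other 15922 with limma 3.58.1 in R 4.3.3 (lmFit and a trended eBayes, leaving 12 residual degrees of freedom on 18 arrays and 10 on 16). Tests are two-sided contrasts, adjusted within each of 11 comparisons. Within a fit the groups share 1 estimate of the spread. Since separate cultures are not stated, the p-values cover only array-to-array spread, part of which may be technical. The number of arrays limits the precision.

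In the annotation 13513 probe sets have 1 gene, 503 have several and 8730 have no entry. Symbols came from the RefSeq gene table, which matched 13436. No build is named, and no coordinates are given. The 5 genes, the 2 gene lists and the comparisons were chosen with earlier results of these data known. Named beside the 5 genes are the list members called in a 2 h comparison, and the 5 tested genes with the highest Pearson r over the 6 group means. List members outside that rule (AT5G54660, AT1G52560 and ATHSP22.0) were named after their values were seen, to account for the family.

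Of 36 pairs of same-numbered arrays across groups, 9 had a correlation of deviations over 0.1 (median 0.03, range -0.40 to 0.56). Both ends of the range lay between arp6-10 at 12 °C and 24 h, the groups with the arrays that went against their labels. Between Col-0 groups, with 2 arrays each, both replicates necessarily give the same value. The check therefore cannot settle whether the numbers mark arrays that belong together. The numbers were not used as pairs. The fitting code was tested on simulated data. Alternatives were other pseudocounts, filters and scalings, no trend, fewer groups, a replicate block and leaving out arrays.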

Additional observations from a re-analysis of the deposited data

Results flagged for a closer look

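Of 15 sets of 4 arrays (5 genes in each arp6-10 group), 4 held an array far from the other 3 by Dixon's test at the 95% level (chance gives about 1 in 20). AT1G53540 stood at 5.32 on arp6-10 24 h replicate 2, and the nearest of the group at 6.36 (gap 0.863 of the range). AT2G19310 on the same array stood at 6.77, and the nearest at 9.08 (0.855). AT5G51440 on that array stood at 6.90, and the nearest at 7.92 (0.943). AT1G54050 stood at 7.73 on arp6-10 12 °C replicate 3, and the nearest at 6.52 (0.871). These are the arrays that went against their labels over all probe sets.

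The 2 h change of AT1G53540 differed between the genotypes on 16 arrays, by 2.11 log2 units more in arp6-10 than in Col-0 (limma adjusted p = 0.0186). On 18 arrays the difference was 1.81 and was not called (limma adjusted p = 0.171). The 12 °C signals of this gene are dim in both genotypes, and 1 of the arrays left out had the highest of them.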

How the results depend on the processing

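Of the 55 gene and comparison pairs, 39 kept their direction and their side of the threshold on 16 arrays, 14 passed it there and not on 18, and 2 turned. On 16 arrays 4 of the 5 genes were called for Col-0 at 24 h against 12 °C, with 16.8% of all probe sets called higher. For Col-0 at 24 h against 2 h it was 5, with 6.24% called lower. For arp6-10 at 24 h against 12 °C it was 5, with 14.0% called higher. Across genotypes it was 1 at 24 h, with 1.36% called lower, and 1 for the 2 h change, with 0.502% called higher. A pseudocount of 64 gave 1 for Col-0 at 24 h against 12 °C, where AT5G51440 had a limma adjusted p of 0.0663. There 2781 of all probe sets were called, against 2775 with a pseudocount of 16. For the 2 h change between genotypes the pseudocount of 64 gave 1. The share of all probe sets called there is not given here, so this count cannot be weighed. With only the groups compared in the fit, 5 were called for Col-0 at 24 h against 2 h. Calls rose over all probe sets as well, to 1812 from 744 in the main fit. Leaving out 1 array gave 3 to 5 genes called for Col-0 at 2 h against 12 °C, 0 to 3 for Col-0 at 24 h against 12 °C, 1 to 3 for Col-0 at 24 h against 2 h, 4 to 5 for arp6-10 at 2 h against 12 °C and 0 to 3 for arp6-10 at 24 h against 12 °C. Between genotypes it gave 0 to 1 at 12 °C, 1 to 3 at 2 h and 0 to 1 at 24 h. Leaving out an array also moved the number of all probe sets called, so these ranges do not describe the 5 genes alone. Among values that changed sign, none of them called, were the 24 h change between genotypes of AT2G29500 (0.034 on 16 arrays) and AT1G53540 (0.41 on 16 arrays, 0.10 with median centring) and AT1G54050 between genotypes at 12 °C (0.10 with values as deposited). With 1 array left out, AT2G29500 between genotypes at 24 h turned to -0.083 without Col-0 24 h replicate 2, AT1G53540 at 12 °C to -0.056 without Col-0 12 °C replicate 2 and AT2G19310 at 2 h to 0.00042 without Col-0 2 h replicate 1. The 24 h change between genotypes turned for AT2G29500 and AT1G53540 as well, up to 0.13 and 0.29. The cause was not tested. A replicate block changed no call and gave 5, 0 and 4 genes in arp6-10 and 5, 2 and 2 in Col-0 (2 h against 12 °C, 24 h against 12 °C and 24 h against 2 h), and 1, 3 and 0 between genotypes at 12 °C, 2 h and 24 h. Over all probe sets the block gave 1271, 2878 and 800 calls in the Col-0 comparisons, against 1258, 2775 and 744 in the main fit. For arp6-10 at 2 h against 12 °C it gave 623, against 589. Scaling moved the median of all probe sets by up to 0.15, and higher calls made up 71.6% of calls with values as deposited and 40.5% with median centring, against 59.3%, for Col-0 at 24 h against 12 °C. Dim signals limit AT1G53540 at 12 °C, and 2 arrays limit each Col-0 group.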

Other observations

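Members of the heat response list also differed between the genotypes before the shift. At 12 °C, on 18 arrays, Hop1 was 4.90-fold, Hop2 3.73-fold and Hsp70-2 2.92-fold higher in arp6-10 than in Col-0 (limma adjusted p = 2.59e-06, 5.78e-05 and 3.82e-06), 3 of 7 tested, where 17.6% of all probe sets were called higher. Hop1 had intensities of 397.1 to 575.1 in arp6-10, against 52.9 to 80.0 in Col-0, with no overlap. At 24 h against 12 °C, Hop1 changed 3.03-fold and Hop2 2.62-fold in Col-0. The 24 h change of these genes was lower in arp6-10 than in Col-0, with log2 differences of -1.48 for Hop1, -1.61 for Hop2 and -0.81 for Hsp70-2 (limma adjusted p = 0.0119, 0.0170 and 0.0433). All 3 were also called on 16 arrays. Of 15922 probe sets, 691 were called lower in this comparison on 18 arrays and 1225 on 16.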
